A study of Hordeum vulgare with 18 samples.

Results

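The change in the heat response of barley microRNAs between 1 h and 6 h was measured in 12 of the 18 small RNA libraries of the series. Barley (Hordeum vulgare) is a cereal crop, and the plants belonged to the spring line Rolap and were 2 weeks old when their shoots were harvested. The 4 groups, with 3 biological replicates each, were shoots after 1 h at 35.5 °C, shoots of plants kept at 21 °C for the same 1 h, shoots after 6 h at 35.5 °C, and shoots of plants kept at 21 °C for the same 6 h. The libraries of the third duration, 3 h, were not used for the comparisons, since their heat and control libraries lay on different sequencing lanes. Heat and control libraries of 1 h shared lane 1 and those of 6 h shared lane 2. Each heat effect was thus taken within a lane, and the change between the 2 effects was then tested. A lane effect equal in heat and control cancels in this change. One that acts unequally on them would not cancel and cannot be told apart from the time. A level at 6 h set against a level at 1 h would carry the lane with the time, and no such comparison was made.

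A microRNA (miRNA) is cut from a hairpin precursor, loaded into an ARGONAUTE protein and guides the silencing of mRNAs that pair with it, in plants mostly by cutting them. Many plant miRNA families are conserved and target transcription factors that set the timing of development and the shape of leaves, while others answer to phosphate, sulfate or copper supply. A level of a mature miRNA reflects both its production and its loss, and in whole shoots a lower level in each cell and fewer cells holding the miRNA cannot be told apart.

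The files list each distinct sequence with its count, and a sequence entered the comparison if it was listed at both times, as 3157 sequences of 124 families were, out of 4750 at 1 h and 4603 at 6 h. Of these, 225 were annotated as mature miRNAs and 2932 as other stretches of a precursor, end variants of mature forms included. Each library held 1448751 to 3213413 counts of joined sequences. Levels are in CPM (counts scaled per library to a common total), where a floor of 3 counts stood at 0.934 to 2.07 and covers counting error alone. A single sequence held 23.99 to 35.04% of the counts and the leading 10 held 76.3 to 83.9%, so a level is a share of a pool with few dominant members. Heat 6 h replicate 2 stood apart on component 1 of a principal component analysis of families (33.3% of variance), at 7.18 against -3.32 to 1.84 for the other 11 libraries. A total of 884 sequences and 74 families passed the filter on low counts.

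The sequences below carry the comparison. They are written as DNA letters from 5′ to 3′ as in the files, named by the precursor they match in the annotation of the files, with bases 2 to 8 of annotated mature forms (the seed) in capitals and precursor-annotated forms in lower case throughout. The first set holds the 2 most abundant sequences of miR172, the family whose heat effect differed between the times.
MIR172b: gCAGCACCaccaagattcaca
MIR172f: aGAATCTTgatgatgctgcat
The second set holds the other 9 of the 10 sequences with the smallest p for the difference among those of at least 10 CPM; the remaining one is the MIR172b sequence above. None of them passed in the edgeR fit of the 12 libraries with the filter on low counts, while DESeq2 called the MIR164a and MIR5051 forms. Without that filter edgeR called the MIR164a, MIR5051, mature MIR165, MIR168 and both MIR169c forms.
MIR164a: ggagaagcagggcacgtgctc
MIR5051: ttggcaccttgaaactggga
MIR165a and MIR165b, trimmed: cggaccaggcttcatccccc
MIR165a and MIR165b, mature: tCGGACCAggcttcatccccc
MIR169c of Aegilops tauschii, longer: aggcggtcaccttggctagcc
MIR169c of Aegilops tauschii, shorter: ggcggtcaccttggctagcc
MIR168: cgcttggtgcagatcgggac
MIR9662a and MIR9662b: ttgaacatcccagagccacc
MIR156a, b, c and e: acagaagagagtgagcacac
The third set, chosen after the values were seen, holds 6 of the 13 sequences called at both times, together with the main mature form of miR444, as examples of heat effects of 1 sign at both times.
MIR444c: cggcaagctagagacagcaac
MIR444b and MIR444c: tGTTGTCTcaagcttgctgcc
MIR444b: tGCAGTTGctgcctcaagctt
MIR169c of Brachypodium distachyon: cctagttctcttcttctggtg
MIR166b: gaatgacgccgggtccgaaag
MIR168a: cCCGCCTTgcaccaagtgaa
MIR319b: cttggactgaagggtgctcc
The fourth set holds the leading sequences of families described below and, chosen after its values were seen, the second form of miR167.
MIR399a: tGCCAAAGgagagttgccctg
MIR827: tTTTGTTGgttgtcatctaacc
MIR394: tTGGCATTctgtccacctcc
MIR167f: tGAAGCTGccagcatgatctgc
MIR167b and MIR167d: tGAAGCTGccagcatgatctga
MIR5051, mature: tTTGGCACcttgaaactggga
MIR9863a and MIR9863b: tGAGAAGGtagatcataatagc
MIR166b and MIR166e: ttcggaccaggcttcattccc
The mature forms of miR165 share the seed CGGACCA with mature forms of miR166 and miR5168, and both printed miR167 forms carry GAAGCTG. Reads were split between such families by the annotation of the files, and that split is uncertain for miR165, miR166 and miR5168 and for miR159 and miR319.

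One family changed its heat effect between the times. miR172, which guides the silencing of AP2-like transcription factors that delay flowering, stood below control in mean at 1 h and above it at 6 h, and its difference of 1.90 ± 0.38 (log2, SE) passed at an adjusted p of 0.0242. It was 1 of 74 families called (1.35% called), while 7 families had an unadjusted p under 0.05 (9.46%), 4 of them higher (5.41%) and 3 lower (4.05%). Among the 884 sequences edgeR called 0 for the difference (0.0% called), with 83 at an unadjusted p under 0.05 (9.39%), 50 of them higher (5.66%) and 33 lower (3.73%). DESeq2 called 4, namely the MIR172b, MIR164a and MIR5051 sequences with the smallest p and a MIR390 sequence at 4.44. A value is called here at an adjusted p under 0.05 by edgeR's quasi-likelihood test on counts with Benjamini-Hochberg adjustment over all families or all sequences tested, and differences are given as log2 (heat / control) at 6 h minus log2 (heat / control) at 1 h.

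The 2 heat effects that make up the difference were unequal in number of calls. At 6 h 73 sequences were called (8.26% called), 38 higher (4.3%) and 35 lower (3.96%) in heat, and 9 families (12.2% called), 5 higher (6.76%) and 4 lower (5.41%). At 1 h 17 sequences were called (1.92% called), 6 higher (0.679%) and 11 lower (1.24%), and 1 family (1.35% called), which was lower. All 17 sequences called at 1 h had the same sign at 6 h, and 13 of them were also called there, which is 76.5% of the calls at 1 h and 17.8% of those at 6 h. Of the 73 called at 6 h, 65 had the same sign at 1 h (89.0%), beside 60.0% of all 884 sequences and 59.5% of all 74 families. More calls at 6 h than at 1 h do not show that the effects differ, and the difference itself was called for none of these sequences. Heat and control ranges lay apart in opposite directions at the 2 times for 12 of 884 sequences (1.36%) and in the same direction for 69 (7.81%). Ranges without overlap were common: 30.3% of sequences and 27% of families had them at 6 h, 16.5% of sequences and 16.2% of families at 1 h, and 6.76% of families in the same direction at both.

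**Figure D1:**
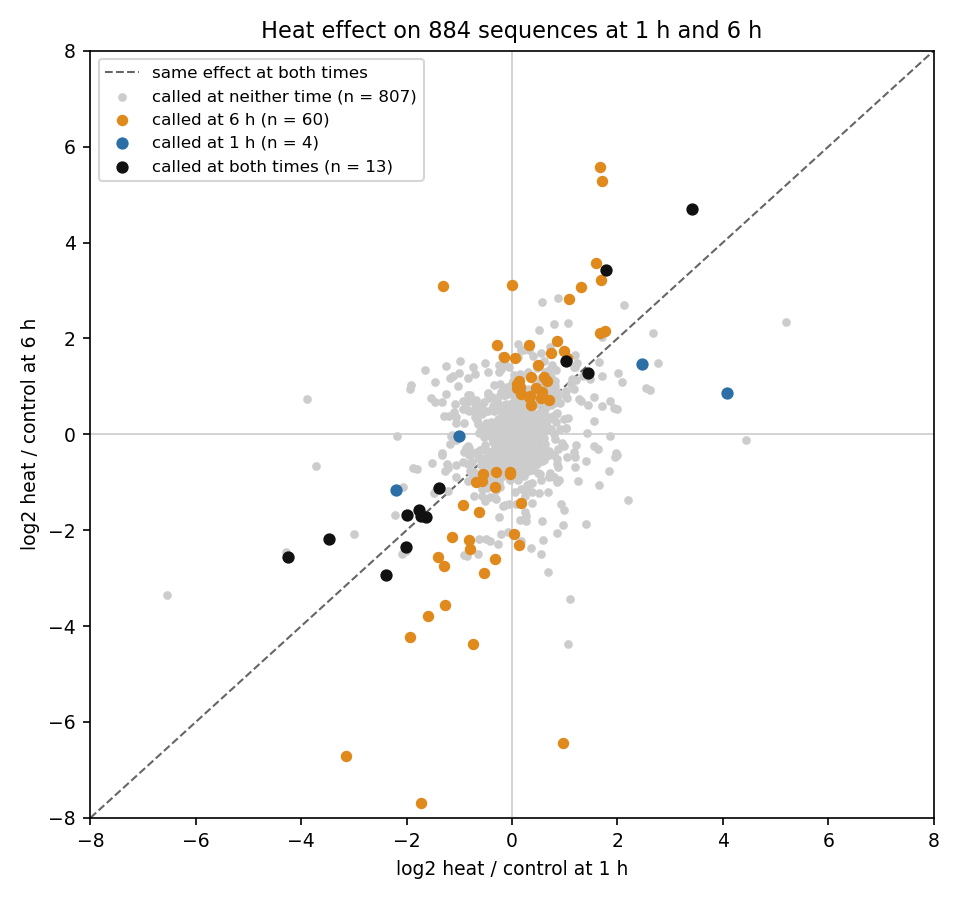
Log2 heat / control of 884 sequences at 1 h (x axis) and at 6 h (y axis), both from the fit of the 12 libraries, with the dashed line marking the same effect at both times. The 13 sequences called at both times and the 4 called at 1 h alone lie in the quadrants of equal sign and the 60 called at 6 h alone are marked apart from the 807 called at neither time.

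miR172 was a family of moderate abundance, with 15 joined sequences of which 4 passed the filter, and its mean over the 12 libraries was 58.6 CPM. At 1 h it stood at 32.9, 58.7 and 40.0 CPM in heat and at 53.1, 72.8 and 71.7 CPM in control. These groups overlapped, since heat replicate 2 lay above control replicate 1. At 6 h it stood at 104, 65.6 and 97.4 CPM in heat and at 42.6, 34.2 and 30.6 CPM in control. Each heat library of 6 h lay above each control library of 6 h. Heat averaged 43.9 ± 13.3 CPM and control 65.9 ± 11.1 CPM at 1 h (SD, n = 3 each), and heat averaged 88.9 ± 20.5 CPM and control 35.8 ± 6.13 CPM at 6 h (SD, n = 3 each). The summed counts behind these means were 285 in heat and 480 in control for 1 h, with 603 in heat and 190 in control for 6 h.

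The heat effect on miR172 was -0.59 ± 0.27 at 1 h (adjusted p = 0.461) and 1.31 ± 0.27 at 6 h (adjusted p = 0.0107), and the 95% interval of the difference ran from 1.07 to 2.73. The 1 h term did not pass on its own, so a fall at 1 h was not shown. The difference was positive under every alternative run, from 1.79 to 2.33. It no longer passed without control 1 h replicate 2 (adjusted p = 0.0854) or 3 (0.0799), without control 6 h replicate 2 (0.0511) or 3 (0.0985), or when tested against a log2 difference of 1 (0.337). Without heat 6 h replicate 2, the library that stood apart, it was 2.13 (adjusted p = 0.00562).

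The sequences within miR172 had positive differences in 4 of 4 tested, beside 402 of all 884. They make up most of the family total that was called, and those matching MIR172b overlap each other. Their shared sign is therefore no separate evidence. The MIR172b sequence made up 43.1% of the family's counts and had a difference of 2.02 ± 0.52 (adjusted p = 0.235). In heat it stood at 13.4, 28.1 and 13.5 CPM at 1 h, against 23.3, 39.2 and 35.7 CPM in control. After 6 h it stood at 33.5, 32.2 and 36.7 CPM in heat, against 21.0, 13.0 and 11.2 CPM in control, with no overlap. The MIR172f sequence, whose AGAATC start is the form known in Arabidopsis to pair with AP2-like mRNAs, made up 35.7% and had a difference of 1.57 ± 0.57 (adjusted p = 0.346). It averaged 17.2 ± 3.70 CPM in heat and 19.8 ± 6.32 CPM in control at 1 h, and 34.2 ± 13.7 CPM in heat and 13.1 ± 5.01 CPM in control at 6 h (SD, n = 3 each). The call thus belonged to the family total, and neither of its leading sequences passed by itself. The files annotate both as mature 5′ forms, but they annotate a 20 nt form of MIR172f, the same sequence without its last base, as mature 3′. The arm given for the MIR172f sequence is therefore uncertain. The MIR172b sequence does not carry the AGAATC start. The family total that was called mixes it with the form that does, so the call is not one for that form. Whether the MIR172b sequence pairs with AP2-like mRNAs was not tested. DESeq2 called the MIR172b sequence (2.00, adjusted p = 0.0428), as did edgeR without heat 1 h replicate 2 (2.46, adjusted p = 0.0329).

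**Figure D2:**
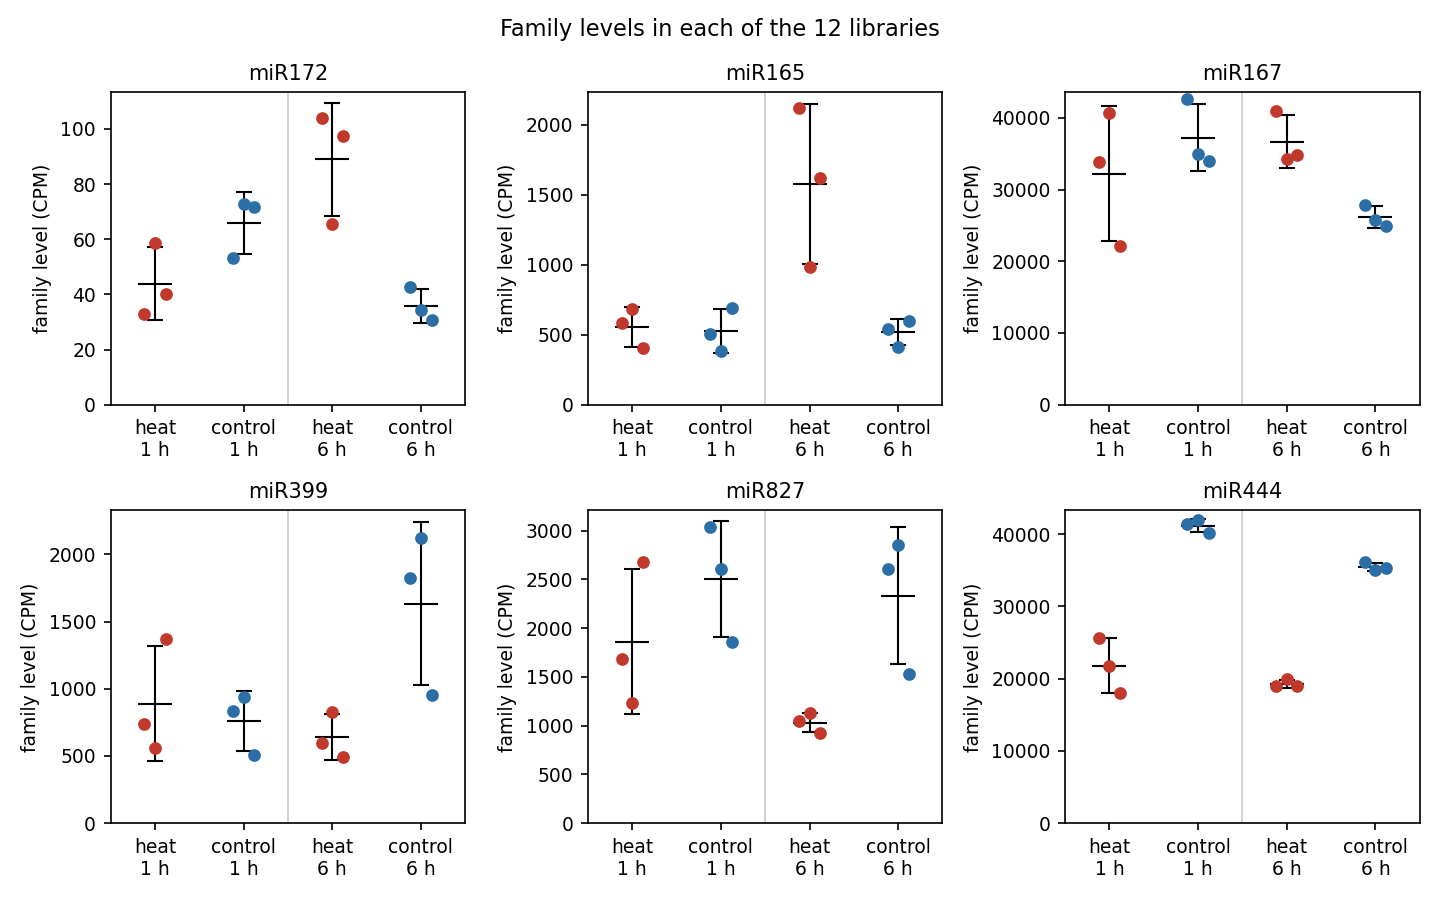
Levels in CPM of 6 families in each of the 12 libraries, in the order heat 1 h, control 1 h, heat 6 h and control 6 h, with points for libraries and bars for the mean ± SD of 3. The vertical line parts the 2 lanes. miR172, miR165 and miR167 stand higher in heat at 6 h with no overlap, miR399 and miR827 stand lower in heat at 6 h, and miR444 stands lower in heat at both times.

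miR156, the other tested family of the phase change list, targets SPL transcription factors that promote the adult phase and lies upstream of miR172. It averaged 21088 CPM in heat and 18304 CPM in control at 1 h, and 17293 CPM in heat and 18237 CPM in control at 6 h. Its difference was -0.28 ± 0.37 (95% interval -1.08 to 0.52, adjusted p = 0.894), and it turned positive with library totals implied by the deposited RPM values. Over the 58 tested sequences of both families, 5 had an unadjusted p under 0.05 with a higher effect at 6 h and 0 with a lower one, and the median difference was -0.16 beside -0.07 over all 884 sequences. The 5 are 3 sequences of miR172 and 2 of miR156.

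miR165, which with miR166 targets the HD-ZIP III transcription factors that set the upper and lower faces of leaves, was the family with the next smallest p for the difference. It stood at 580, 683 and 405 CPM in heat and at 505, 384 and 690 CPM in control at 1 h, with overlapping ranges. In the 6 h libraries it stood at 2123, 985 and 1618 CPM in heat and at 542, 415 and 595 CPM in control, and each heat library lay above each control library. The effect was 0.08 ± 0.31 at 1 h (adjusted p = 0.912), with a sign kept in 7 of 10 other settings and 5 of 12 fits that left out a library, and 1.61 ± 0.32 at 6 h (adjusted p = 0.0107). The difference of 1.53 ± 0.45 had a 95% interval of 0.56 to 2.50 and an adjusted p of 0.188, so it was not called. It passed without heat 6 h replicate 2 (1.82, adjusted p = 0.0212) and with implied library totals (1.91, adjusted p = 0.0299).

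The mature miR165 sequence carried 92.6% of the family and its difference was 1.53 ± 0.42 (adjusted p = 0.235). Without the filter on low counts edgeR called it (1.53, adjusted p = 0.00304). The trimmed form, which starts 1 base later, averaged 10.1 ± 1.75 CPM in heat and 12.3 ± 4.61 CPM in control at 1 h (SD, n = 3 each). The 6 h levels were 54.6, 24.2 and 28.9 CPM in heat and 9.65, 8.68 and 11.2 CPM in control, and its difference was 2.14 ± 0.57 (adjusted p = 0.235). All 4 tested miR165 sequences were called higher at 6 h, beside 38 of all 884 sequences (4.3%). The 4 are overlapping end variants of 1 sequence, so they do not count as separate members. miR166, which shares the targets and was the most abundant family, stood at 314933 ± 69918 CPM in heat and 288642 ± 29234 CPM in control at 1 h, and at 266804 ± 4436 CPM in heat and 309452 ± 20178 CPM in control at 6 h (SD, n = 3 each). Its difference was -0.34 ± 0.21 (95% interval -0.80 to 0.12, adjusted p = 0.730), and it turned positive with implied library totals. The commonest sequence of all, printed as MIR166b and MIR166e, made up 94.9% of miR166 and had a difference of -0.34 ± 0.25 (adjusted p = 0.778). Merged into 1 family with miR166 and miR5168, the group had a difference of -0.31 ± 0.20 (adjusted p = 0.827), of the opposite sign to that of miR165.

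Other families of leaf development gave smaller differences, and none was called. miR319, which targets TCP factors that end cell division in leaf margins, was called higher at 6 h (0.77 ± 0.18, adjusted p = 0.0208). That call held in 9 of 11 other settings and in 8 of 12 fits that left out a library, and the 6 h effect was -0.064 when miR319 was merged with miR159. Its effect at 1 h was 0.32 ± 0.18, and the difference of 0.46 ± 0.26 (adjusted p = 0.730) turned negative when miR319 was merged with miR159, which is more abundant. miR396, which targets growth-regulating factors, averaged 325128 CPM in heat and 331702 CPM in control at 1 h, and 260006 CPM in heat and 206881 CPM in control at 6 h. Its difference was 0.36 ± 0.18 (95% interval -0.03 to 0.74, adjusted p = 0.609). miR159, which targets GAMYB factors, had a difference of -0.62 ± 0.55 (adjusted p = 0.894), with a spread from 94814 to 329826 CPM among the 3 heat libraries of 1 h. Of the 224 tested sequences of the 5 families on this list, 15 had an unadjusted p under 0.05 with a higher effect at 6 h and 4 with a lower one, beside 50 and 33 of all 884, and edgeR called 0. The median difference was 0.14.

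miR399 and miR827 act in phosphate supply, where miR399 targets the PHO2 ubiquitin-conjugating enzyme and miR827 targets SPX-domain proteins. Both were called lower in heat at 6 h and neither at 1 h. The 6 h call of miR399 held in 7 of 11 other settings and in 4 of 12 fits that left out a library, and that of miR827 in 9 of 11 and 7 of 12. miR399 stood at 736, 557 and 1373 CPM in heat and at 834, 935 and 508 CPM in control at 1 h. At 6 h it stood at 597, 830 and 495 CPM in heat and at 1821, 2120 and 954 CPM in control, with control replicate 3 closest to the heat libraries. The effect was 0.23 ± 0.39 at 1 h (adjusted p = 0.824), a value that turned negative with implied library totals and without heat 1 h replicate 3, and -1.35 ± 0.39 at 6 h (adjusted p = 0.0412). The difference was -1.58 ± 0.55 (95% interval -2.77 to -0.38, adjusted p = 0.263). Its mature MIR399a sequence, 74.4% of the family, had a difference of -1.62 ± 0.50 (adjusted p = 0.253).

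miR827 stood at 1681, 1230 and 2676 CPM in heat and at 3036, 2612 and 1859 CPM in control at 1 h. After 6 h it stood at 1047, 1125 and 925 CPM in heat and at 2609, 2854 and 1534 CPM in control. The 6 h ranges lay apart and the 1 h ranges overlapped, and the effects were -0.43 ± 0.31 at 1 h and -1.18 ± 0.31 at 6 h (adjusted p = 0.0262). The difference was -0.75 ± 0.44 (adjusted p = 0.730). Its 2 mature forms were unequal in size of effect at 6 h. The printed 5′ form, 67.0% of the family's counts, had -1.63 ± 0.35 (adjusted p = 0.00885). The 3′ form, 20.3% of them, had -0.37 ± 0.24 (adjusted p = 0.431) and was not called. The difference between these forms was not tested, nor was which of them pairs with mRNAs of SPX-domain proteins. The family call at 6 h therefore does not show that a form pairing with those mRNAs fell. miR395, which targets sulfate assimilation genes, had a difference of -0.55 ± 0.65 (adjusted p = 0.894). Over the list of phosphate and sulfate families the difference was negative in 3 of 3 families and in 20 of 23 tested sequences, with a median of -1.05 over sequences beside -0.07 over all 884. There 7 sequences had an unadjusted p under 0.05 with a lower effect at 6 h and 0 with a higher one, beside 33 lower (3.73%) and 50 higher (5.66%) of all 884. With the filter on low counts edgeR called 0 for the difference. Of the 7, 6 belonged to miR399 and 1 to miR827. Many of the 23 are overlapping end variants, so they do not count as separate members. The same holds for the sequence counts of the other lists. With implied library totals the median of all families shifted by 0.47, and miR399 then stood at -1.01.

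**Figure D3:**
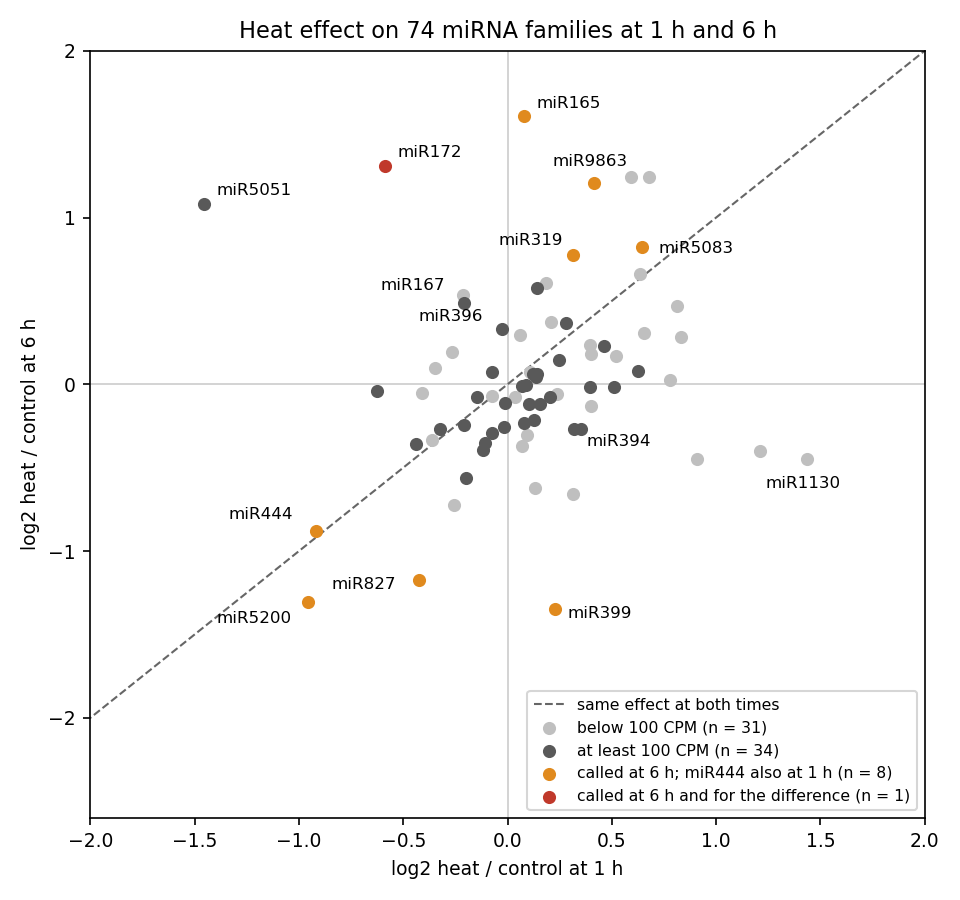
Log2 heat / control of 74 families at 1 h (x axis) and at 6 h (y axis), with the dashed line marking the same effect at both times. miR172 lies in the upper left quadrant and is the 1 family called for the difference, miR165 and miR399 lie near 0 on the x axis and far from it on the y axis, and miR444 lies on the line.

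Of the 5 families of the auxin list, miR160, miR167 and miR393 target auxin response factors or auxin receptors, and miR390 and miR164 were listed with them. miR167, whose targets ARF6 and ARF8 act in growth and flower development, stood at 33826, 40712 and 22175 CPM in heat and at 42605, 35038 and 34058 CPM in control at 1 h. In the 6 h libraries it stood at 40988, 34241 and 34870 CPM in heat and at 27898, 25736 and 24903 CPM in control, with no overlap. The difference was 0.70 ± 0.28 (95% interval 0.09 to 1.30, adjusted p = 0.303) and was not called. The 2 main mature forms of miR167 end in different bases: the MIR167f form had a difference of 0.97 ± 0.32 (adjusted p = 0.320), and the form of MIR167b and MIR167d had 0.22 ± 0.29 (adjusted p = 0.880). Whether these forms differ from each other was not tested. miR160, miR390 and miR393 had differences of 0.09, -0.23 and -0.08, and the values of miR390 and miR393 turned positive with implied library totals.

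miR164, which targets NAC factors that part organs from each other, had a family difference of -0.52 ± 0.40 (adjusted p = 0.810), which turned positive without heat 1 h replicate 3. Its sequences did not all share that sign. The MIR164a form in the second set starts and ends 1 base later than a mature form, made up 13.1% of the family and had the smallest p of all sequences for the difference. It stood at 15.2, 13.6 and 16.1 CPM in heat and at 39.6, 37.3 and 20.8 CPM in control at 1 h. The 6 h levels were 21.0, 30.7 and 22.3 CPM in heat and 7.38, 7.05 and 17.7 CPM in control. Heat thus lay below control at 1 h and above it at 6 h with no overlap at either time. The difference was 2.33 ± 0.55 (edgeR, adjusted p = 0.235), and DESeq2 called it (2.30, adjusted p = 0.0428). Without the filter on low counts edgeR also called it (2.33, adjusted p = 0.0308). The auxin list had 8 of 82 tested sequences at an unadjusted p under 0.05 with a higher effect at 6 h and 1 with a lower one, beside 5.66 and 3.73% of all 884, and edgeR called 0 for the difference.

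miR394, whose target in Arabidopsis is the F-box mRNA LCR, was the 1 family of 74 with ranges apart in opposite directions (1.35%). It stood at 259, 216 and 244 CPM in heat and at 200, 189 and 187 CPM in control at 1 h. At 6 h it stood at 195, 172 and 191 CPM in heat and at 246, 222 and 204 CPM in control. The difference was -0.59 ± 0.23 (95% interval -1.08 to -0.10, adjusted p = 0.302) and did not pass. With implied library totals it was -0.14. Its mature sequence, 63.7% of the family, had -0.92 ± 0.27 (adjusted p = 0.253). Not all forms fell in heat at 6 h. The form shortened to 18 nt, 12.3% of the family, averaged 32.7 CPM in heat and 18.4 CPM in control at 6 h. The form shortened to 19 nt, 10.5% of it, averaged 27.4 CPM in heat and 22.3 CPM in control. The rarer tested forms went both ways.

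miR5051, a family known from barley and related grasses, had the highest difference of all 74 families, 2.54 ± 0.99 (95% interval 0.39 to 4.69, adjusted p = 0.302), and 1 library set its size. It stood at 394, 3215 and 280 CPM in heat and at 4645, 3103 and 2926 CPM in control at 1 h. Heat replicate 2 thus lay among the control libraries while the other 2 heat libraries lay below all of them. After 6 h it stood at 3627, 2281 and 2392 CPM in heat and at 1338, 1300 and 1279 CPM in control. Without heat 1 h replicate 2 the difference was 4.48 (adjusted p = 7.7e-06), and which of the 2 values describes the plants was not tested. The trimmed MIR5051 form in the second set followed the same libraries, with 7.80, 43.7 and 7.83 CPM in heat and 77.3, 50.3 and 58.2 CPM in control at 1 h. In the 6 h libraries it had 114, 37.6 and 57.9 CPM in heat and 23.3, 27.1 and 32.4 CPM in control, and its difference was 3.00 ± 0.78 (adjusted p = 0.235). DESeq2 called it (3.00, adjusted p = 0.0428), as did edgeR without heat 1 h replicate 2 (4.31, adjusted p = 0.000833). Without the filter on low counts edgeR also called it (3.00, adjusted p = 3.02e-06).

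miR9863 targets mRNAs of Mla immune receptors in barley. The family was called higher at 6 h (1.21 ± 0.30, adjusted p = 0.0208), a call that held in 10 of 11 other settings and 8 of 12 fits that left out a library, and stood at 0.41 ± 0.29 at 1 h, with a difference of 0.79 ± 0.42 (adjusted p = 0.661). Its mature sequence stood at 30.8, 26.1 and 3.04 CPM in heat and at 18.6, 11.8 and 29.7 CPM in control at 1 h. The 6 h levels were 23.0, 26.5 and 45.1 CPM in heat and 2.84, 6.51 and 1.18 CPM in control, with 19 counts in all 3 control libraries. The difference was 3.13 ± 0.96 (adjusted p = 0.253). miR9773 had a wide interval, from -3.40 to 2.32 around a difference of -0.54, with 331, 3.07 and 369 CPM in heat at 6 h. The low value was again heat 6 h replicate 2, and without it the difference was 0.06. The control libraries of 6 h held 177, 231 and 257 CPM.

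A further 5 sequences were among the 10 with the smallest p, and none was called by edgeR over the 12 libraries with the filter on low counts. Without that filter edgeR called the longer (adjusted p = 0.0435) and shorter (0.0266) MIR169c forms and the MIR168 form (0.000801). Both MIR169c forms of Aegilops tauschii match a precursor of miR169, which targets NF-YA subunits of a CCAAT-binding complex, and they start 1 base apart. The longer form averaged 22.9 ± 10.3 CPM in heat and 22.5 ± 8.98 CPM in control at 1 h, and 11.4 ± 2.73 CPM in heat and 48.6 ± 3.79 CPM in control at 6 h (SD, n = 3 each). Its difference was -2.11 ± 0.56 (adjusted p = 0.235), and it passed without heat 1 h replicate 2 (-2.43, adjusted p = 0.0329). The shorter form lay higher in heat at 1 h and lower at 6 h with no overlap, at 34.8 ± 17.1 CPM in heat and 15.2 ± 1.75 CPM in control at 1 h and at 70.8 ± 26.7 CPM in heat and 113 ± 35.9 CPM in control at 6 h (SD, n = 3 each). Its difference was -1.87 ± 0.53 (adjusted p = 0.235). The miR169 family as a whole had a difference of 0.07 ± 0.23 (95% interval -0.44 to 0.57), a sign that turned without heat 1 h replicate 2, and these forms made up 0.456 and 0.976% of its counts.

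The MIR168 form lacks the first base of the mature sequence of miR168, the regulator of ARGONAUTE1. It stood at 1015, 1364 and 1652 CPM in heat and at 3786, 1526 and 3914 CPM in control at 1 h, and its difference was 1.58 ± 0.45 (adjusted p = 0.235). At 6 h it averaged 1614 ± 474 CPM in heat and 1232 ± 146 CPM in control (SD, n = 3 each). The miR168 family had a difference of -0.09 ± 0.25, whose sign turned with implied library totals and without 4 of the 12 libraries. The MIR156 form, which starts 3 bases after a mature form, had a difference of 2.14 ± 0.64 (adjusted p = 0.253), and it passed without heat 1 h replicate 2 (2.75, adjusted p = 0.0477). It averaged 9.72 ± 5.97 CPM in heat and 16.1 ± 3.91 CPM in control at 1 h, and 26.8 ± 10.9 CPM in heat and 10.2 ± 1.63 CPM in control at 6 h (SD, n = 3 each).

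The MIR9662 form, which starts 1 base before a mature form, stood higher in heat at both times with no overlap. It had 1805, 1455 and 1332 CPM in heat and 1273, 1162 and 1133 CPM in control at 1 h. After 6 h it had 2300, 2536 and 2342 CPM in heat and 1035, 1044 and 1075 CPM in control. Its effect was 0.36 ± 0.17 at 1 h (adjusted p = 0.407) and 1.19 ± 0.17 at 6 h (adjusted p = 0.000654), with a difference of 0.82 ± 0.24 (adjusted p = 0.235). The miR9662 family had a difference of -0.08 ± 0.19, which turned positive with implied library totals and without any of 3 libraries.

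Other sequences had heat effects of the same sign at both times, though not all of equal size, and miR444 was the clearest family. miR444 targets MADS-box factors in grasses and was the 1 family called at both times. It stood at 25620, 21708 and 18048 CPM in heat and at 41440, 41930 and 40176 CPM in control at 1 h. In the 6 h libraries it stood at 19004, 19927 and 18941 CPM in heat and at 36156, 35096 and 35271 CPM in control. The effect was -0.92 ± 0.14 at 1 h (adjusted p = 0.00168) and -0.88 ± 0.14 at 6 h (adjusted p = 0.0025). The difference was 0.04 ± 0.19, with a 95% interval of -0.38 to 0.46, and its sign turned when all sequences of either time were used. With implied library totals it was 0.50.

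Members of miR444 did not share 1 effect. The MIR444c sequence, 42.2% of the family, had the smallest p at both times. It stood at 6362 ± 916 CPM in heat and 21145 ± 442 CPM in control at 1 h and at 5245 ± 814 CPM in heat and 17009 ± 700 CPM in control at 6 h (SD, n = 3 each). Its effects were -1.73 ± 0.17 and -1.70 ± 0.17 at 1 h and 6 h (adjusted p = 4.47e-05 and 5.8e-05), and the difference of 0.04 ± 0.24 had an interval of -0.47 to 0.55. The main mature form, at 40.6% of the family, had effects of -0.50 ± 0.19 and -0.49 ± 0.19 (adjusted p = 0.264 and 0.135). The MIR444b mature form stood higher in heat, at 200, 186 and 180 CPM against 65.2, 83.6 and 59.0 CPM in control at 1 h. The 6 h levels were 144, 184 and 173 CPM in heat and 81.2, 60.2 and 63.6 CPM in control, and its difference was -0.16 ± 0.30 (95% interval -0.80 to 0.49). Of the 13 sequences called at both times, 6 belonged to miR444, 3 to miR169, 2 to miR319, 1 to miR166 and 1 to miR168.

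The MIR169c sequence of Brachypodium distachyon and the MIR166b sequence fell at both times. MIR169c had 13.9, 30.6 and 37.8 CPM in heat and 139, 154 and 140 CPM in control at 1 h, and 14.1, 25.7 and 30.0 CPM in heat and 178, 195 and 157 CPM in control at 6 h. Its effects were -2.39 ± 0.34 and -2.93 ± 0.34 (adjusted p = 0.00074 and 0.000166) and their difference was -0.54 ± 0.46. MIR166b had an effect with a 95% interval of -2.72 to -1.29 at 1 h (adjusted p = 0.00269) and one of -2.35 ± 0.34 at 6 h (adjusted p = 0.000654), with a difference of -0.35 ± 0.46. Neither interval excluded 0, at -1.52 to 0.44 for MIR169c and -1.33 to 0.63 for MIR166b.

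The MIR168a and MIR319b sequences rose at both times. MIR168a, a mature 3′ form, had 627, 488 and 548 CPM in heat and 363, 280 and 175 CPM in control at 1 h, and 830, 721 and 670 CPM in heat and 258, 241 and 274 CPM in control at 6 h. Its effects were 1.03 ± 0.24 and 1.52 ± 0.24 (adjusted p = 0.0359 and 0.0011), and the 1 h call was kept under 5 of 11 other settings and 2 of 12 fits that left out a library. The MIR319b form starts 1 base before a mature form and had 22.5, 22.1 and 51.3 CPM in heat and 10.2, 8.87 and 8.91 CPM in control at 1 h. At 6 h it had 48.9, 84.0 and 82.3 CPM in heat and 9.65, 4.34 and 5.89 CPM in control. Its effects were 1.77 ± 0.40 and 3.43 ± 0.43, with a 1 h call kept under 7 of 11 other settings and 5 of 12 fits that left out a library, and the difference of 1.65 ± 0.57 (95% interval 0.43 to 2.87) had an adjusted p of 0.336.

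miR5083 and miR5200 were also called at 6 h, with effects of the same sign at 1 h. The 6 h call of miR5083 held in 8 of 11 other settings and 6 of 12 fits that left out a library, and that of miR5200 in 9 of 11 and 9 of 12. miR5083 had 0.65 ± 0.21 at 1 h (adjusted p = 0.164) and 0.82 ± 0.22 at 6 h (adjusted p = 0.0262). miR5200, which targets FT mRNAs in Brachypodium, had -0.96 ± 0.30 at 1 h (adjusted p = 0.152) and -1.31 ± 0.32 at 6 h (adjusted p = 0.0208), at a mean of 17.7 CPM. Their differences were 0.18 ± 0.30 and -0.35 ± 0.43.

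**Figure D4:**
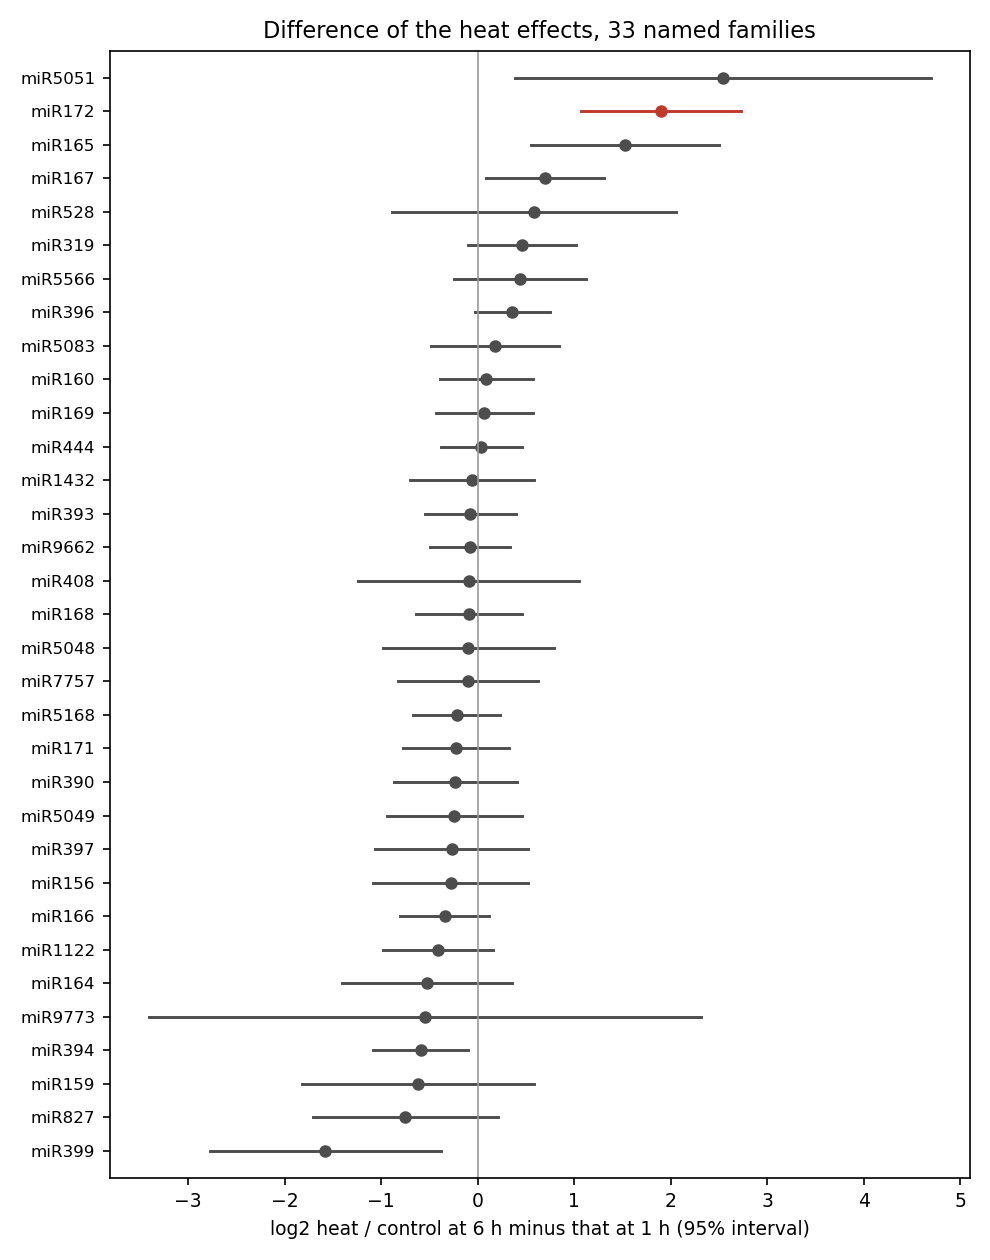
Difference of the heat effects (log2 heat / control at 6 h minus that at 1 h, x axis) for the 33 named families, as a point with its 95% interval. The interval of miR172, from 1.07 to 2.73, is drawn in red as the 1 called family, and miR5051 and miR9773 have the widest intervals.

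Among the 40 families of at least 100 CPM, 14 had a positive and 26 a negative difference, 30 lay within 0.5 of 0 and 19 had a 95% interval wholly within 1 of 0. Over all 74 families 28 were positive and 46 negative, and the median was -0.11, which moved up by 0.47 with implied library totals. The median SE of a family difference was 0.42 and that of a sequence difference 0.69.

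The other lists had no family and no sequence called by edgeR for the difference. Of the copper list, miR397, which targets laccases, had a difference of -0.27 ± 0.36 and miR408, which targets plantacyanins, had -0.09 ± 0.52, and both turned positive with implied library totals. miR528, which targets copper proteins in monocots, had 0.59 ± 0.67. The NF-YA and GRAS list had 4 of 119 sequences at an unadjusted p under 0.05 with a higher and 10 with a lower effect at 6 h, beside 5.66 and 3.73% of all 884, at a median of -0.09. The 17 transposon-like cereal families had 6 tested, with a median of -0.34 beside -0.11 over all families, and miR1130 among them stood at -1.88 ± 0.63 (adjusted p = 0.263) from 109 and 44 counts in heat and control at 1 h and 53 and 55 at 6 h. The 13 tested families of the cereal list had 5 positive and 8 negative differences, with 12 of 185 sequences at an unadjusted p under 0.05 with a higher and 4 with a lower effect at 6 h, beside the same 5.66 and 3.73%. Families of reproductive phased RNA triggers had too few counts to test, with 4 and 0 counts in heat and control at 1 h and 6 and 0 at 6 h.

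The makeup of the pool by length and annotation was compared as shares of counts. The permutation test of a share has as its null that temperature had no effect at either time. A small p from it therefore need not mean that the 2 heat effects were unequal. Sequences of 22 nt held 7.63, 7.19 and 5.34% in heat and 7.74, 6.73 and 7.03% in control at 1 h. At 6 h they held 7.75, 8.13 and 7.97% in heat and 6.41, 5.93 and 6.17% in control, so the groups overlapped at 1 h and lay apart at 6 h. The difference was 2.22 percentage points (exact two-sided permutation p = 0.04, adjusted over 5 shares 0.2), where 0.005 is the smallest p that the 400 arrangements can give. The 21 nt share differed by -2.66 points (exact permutation p = 0.145), the 20 nt share by 0.69 points (exact permutation p = 0.285) and the 24 nt share by -0.07 points (exact permutation p = 0.18). The share of mature-annotated sequences at 1 h was 57.4 ± 1.28% in heat, against 57.7 ± 1.68% in control. The 6 h share was 53.6 ± 2.74% in heat, against 49.8 ± 1.54% in control (SD, n = 3 each). Its difference of 4.09 points had an exact permutation p of 0.095 (adjusted 0.225) and turned to -0.68 points without the 10 most abundant sequences. There the 20 nt share turned to -0.48 points, the 21 nt share stood at -1.24 points and the 24 nt share at -0.34 points.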

How the data were processed

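The authors deposited, for each duration, a table of read counts per distinct sequence with its miRNA annotation and RPM values, per the file headers. Small RNAs of 18 to 25 nt are listed. No source used here names the tool or the annotation release. The RPM columns were used only to derive the library totals they imply, 23280481 to 44219180, of which the tables hold 5.11 to 9.02%. Where a sentence in the text speaks of implied library totals, these replace the scaling described next.

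The tables of 1 h and 6 h were joined on the sequence, and counts of sequences with the same family name were summed (3157 sequences, 124 families). The raw counts entered edgeR 4.0.16 (R 4.3.3) with TMM scaling over the 12 libraries, filterByExpr (minimum count 10, total 15) and a quasi-likelihood fit of 4 groups, separately for sequences and families. The 2 heat effects and their difference were tested as contrasts, with Benjamini-Hochberg adjustment and calls under 0.05. Standard errors are the log2 change over the square root of F, and 95% intervals use its degrees of freedom. CPM are counts scaled by the TMM library size. Shares were tested by exact permutation of temperature within each duration, with no temperature effect at either duration as the null (scipy 1.17.1). The fits were tested on simulated counts. Figures were drawn with matplotlib 3.10.9, and tables were handled with pandas 2.3.3 under Python 3.11.15.

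Named families are those called for the difference, the 6 highest and 6 lowest differences among families of at least 100 CPM, and listed families of at least 100 CPM. Named sequences are those called, or otherwise the 10 with the smallest p at 10 CPM or more, with the leading sequence of each family described. Other named items were chosen after their values were seen. The members and lists were chosen with earlier results of these data known. Alternatives were DESeq2 1.42.0, RLE factors, implied totals, scaling within each duration, scaling without the 10 most abundant sequences, other filters, all 18 libraries, all sequences of either table, merged near-identical families, a test against a log2 difference of 1 and leaving out each library. Replicate numbers follow accession order. Replicates of a group correlated at 0.930 to 0.964 and differed beyond sampling noise.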

Additional observations from a re-analysis of the deposited data

Results flagged for a closer look

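The heat effect on miR172 differed between 6 h and 1 h by the test of the difference itself, at 1.90 on the log2 scale (edgeR, adjusted p = 0.0242), with each of the 3 heat libraries above each control library at 6 h.

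For 4 other results, heat and control libraries lay apart in opposite directions at the 2 times. Their test of the difference did not pass after adjustment in edgeR with the filter on low counts. The sequences among them passed in edgeR without that filter. The miR394 family had a difference of -0.59 (adjusted p = 0.302). The MIR164a sequence ggagaagcagggcacgtgctc had 2.33, the MIR5051 sequence ttggcaccttgaaactggga had 3.00 and the MIR169c sequence ggcggtcaccttggctagcc had -1.87 (adjusted p = 0.235 for each in edgeR). Of all 884 sequences 12 showed such a pattern (1.36%), and of 74 families 1 (1.35%).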

How the results depend on the processing

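No paired analysis was possible because the replicate numbers follow accession order and the labels give no number shared across groups.

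For sequences, the count called for the difference was 4 with DESeq2 and 15 without the filter, at 1 h the counts were 33, 36 and, against a log2 change of 1, 6, and at 6 h they were 110 with DESeq2 and 8 against a log2 change of 1. For families, the difference was called for 2 with implied library totals and 0 against a log2 difference of 1, where 1 h gave 0 and 6 h gave 0, and 6 h gave 5 with implied totals. The miR172 difference of 1.90 did not pass against a log2 difference of 1 (adjusted p = 0.337).

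Leaving out 1 library gave 0 to 10 sequences called for the difference, 10 to 27 at 1 h and 37 to 77 at 6 h. For families it gave 0 to 2, 1 to 2 and 2 to 10. miR172 then ranged from 1.79 to 2.16. The count of sequences at 6 h was 45 without heat 6 h replicate 1, 37 without control 6 h replicate 1 and 45 without control 6 h replicate 2. At 1 h it was 27 without heat 1 h replicate 2, 10 without heat 1 h replicate 3 and 10 without control 1 h replicate 3. The 10 sequences for the difference came without heat 1 h replicate 2, which also gave 2 families for the difference and 2 at 1 h; without heat 6 h replicate 2 the difference was called for 2 families. The families called at 6 h were 2, 4 and 5 without heat 6 h replicates 1, 2 and 3, and 4 without control 6 h replicate 1 or 2. For the difference, 0 families were called without control replicates 2 or 3 of either time.

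Implied totals moved the median family difference up by 0.47, and these then turned positive: miR1122 0.042, miR166 0.14, miR5049 0.16, miR171 0.23, miR397 0.23, miR156 0.24, miR390 0.25, miR5168 0.27, miR7757 0.36, miR9662 0.39, miR5048 0.39, miR393 0.41, miR168 0.42, miR1432 0.42 and miR408 0.48. miR319 was -0.41 when merged with miR159, and miR444 was -0.010 with sequences of either table. miR1432 was 0.012 over 18 libraries and 0.024 when scaled without the 10 most abundant sequences, which also turned the 20 nt share to -0.48 and the mature share to -0.68 points. Leaving out 1 library turned the sign within these ranges: miR164 -0.69 to 0.0017, miR159 -0.91 to 0.10, miR5049 -0.38 to 0.0083, miR9773 -1.17 to 0.061, miR9662 -0.11 to 0.057, miR168 -0.16 to 0.16, miR393 -0.11 to 0.11, miR7757 -0.32 to 0.10, miR169 -0.0051 to 0.25, miR5048 -0.32 to 0.18, miR1432 -0.15 to 0.12 and miR408 -0.53 to 0.19. The causes were not tested. The miR172 call was kept in 18 alternatives and lost in 5. Of 733 values for the 32 named families not called, 676 kept direction and side of the threshold, 54 turned and 3 newly passed; of 220 for the 10 named sequences, also not called, 207 kept both and 13 newly passed with DESeq2, without the filter or without heat 1 h replicate 2.

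With 3 libraries a group the median SE was 0.42 for families and 0.69 for sequences, and differences as large as those of miR165 and miR399 did not pass. Levels are shares of the annotated pool, so they do not show amounts per cell.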

Other observations

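The libraries of 3 h were left out of the comparison, since heat 3 h was sequenced on lane 1 and control 3 h on lane 2, and their levels are given as values only, in CPM scaled over all 18 libraries. miR172 stood at 52.8, 54.4 and 51.5 CPM in heat 3 h and at 56.9, 51.5 and 51.5 CPM in control 3 h. miR165 stood at 951, 534 and 445 CPM in heat 3 h and at 1206, 378 and 540 CPM in control 3 h. miR5051 stood at 3263, 3588 and 3541 CPM in heat 3 h and at 1903, 2999 and 2967 CPM in control 3 h. miR399 stood at 583, 739 and 863 CPM in heat 3 h and at 777, 2054 and 1206 CPM in control 3 h. miR444 stood at 18300, 17410 and 19690 CPM in heat 3 h and at 38246, 39360 and 37406 CPM in control 3 h.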
